A study of Mus musculus with 24 samples.

Results

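Cultured cortical neurons were compared after 6 h and after 1 h of continued depolarization, to describe which genes switched on within the first hour stayed up, which came down, and which genes changed only later. The comparison uses the 4 arrays labelled CTX WT at 1 h and 6 h (2 at each time), out of 24 arrays in the series. The cells were CTX-derived neurons from Npas4 wild-type mice of the C57Bl/6 background, taken at embryonic day 14. They were kept 10 days in vitro, silenced overnight with tetrodotoxin (TTX, a sodium channel blocker) and AP-5 (an NMDA receptor blocker), then depolarized with 55 mM extracellular KCl. The 2 CTX WT arrays at 0 h, which were silenced but not depolarized, give the starting level. CTX cultures from Npas4 KO littermates and cultures from the medial ganglionic eminence (MGE), WT and KO, were treated the same way at 0, 1 and 6 h with 2 arrays per group. All of these cultures share the silencing, and KCl depolarizes every cell in the dish, neurons and other cells alike. The labels number the 2 arrays of a group as repeats and do not say whether these were separate cultures, so p-values measure the spread between such repeats, which may be technical.

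Membrane depolarization opens voltage-gated calcium channels, and the calcium that enters activates kinases which phosphorylate transcription factors already present in the nucleus. These switch on immediate early genes without new protein synthesis. Many immediate early genes encode transcription factors, such as the Fos, Egr and Nr4a families, and others encode inhibitors that close the signalling loop, such as the dual-specificity phosphatases. The early factors then act on late response genes, which in neurons encode secreted peptides, growth factors, synaptic proteins and channels.

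Values are log2 of the deposited array intensity, and each gene is represented by 1 probe set. A difference is the mean at 6 h minus the mean at 1 h on that log2 scale, so 1 is a 2-fold rise. A gene was called at a limma adjusted p under 0.05 over 12378 tested genes. The SE, intervals and p-values come from the fit to all 24 arrays, not from the 4 arrays compared alone. The array medians of the CTX WT arrays lay at almost the same intensity, from 117 to 119, because the values had been normalized between arrays. At 6 h the 2 CTX WT arrays lay further apart than at the other times: 980 tested genes differed over 2-fold between them, against 145 at 1 h and 116 at 0 h. All 16 excitatory neuron markers on the array were above the array median in every CTX WT array at 0, 1 and 6 h. Of 17 interneuron markers 12 were above it, with Pvalb, Vip, Dlx6, Nkx2-1 and Erbb4 below the median in all of them.

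Between 1 h and 6 h, 1022 genes rose (8.26% of those tested) and 2669 fell (21.6%). With a change of at least 2-fold required, 434 rose (3.51%) and 1101 fell (8.89%). The first hour changed far fewer genes by the same test, with 77 higher at 1 h than at 0 h (0.622%) and 30 lower (0.242%). The median difference of all tested genes between 6 h and 1 h was -0.09. Over the whole 6 h, 1297 genes were called above 0 h (10.5%) and 3065 below it (24.8%). RNA from the whole dish was measured, so fewer cells of a type and less RNA per cell cannot be told apart. The count of calls depended on single arrays: without CTX WT 1 h replicate 2 it was 563 higher and 1544 lower, and leaving out 1 of the 4 arrays gave 563 to 1023 higher and 1544 to 2518 lower. Of the 3691 genes called in either direction (29.8%), 2095 to 2837 stayed called in the same direction and 0 changed sign when 1 of the 4 arrays was left out.

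The 77 genes called higher at 1 h than at 0 h are called early genes here. Between 1 h and 6 h, 15 of them fell (19.5%, against 21.6% of all tested genes). A further 19 rose (24.7%, against 8.26% of all tested genes) and 43 were not called. All 43 of the last set were still called above 0 h at 6 h, as were 10 of the 15 that fell, and in all 72 of 77 early genes were above 0 h after 6 h of KCl. The median difference of the 77 was 0.14, with a range from -2.04 to 2.81. The early genes were picked for being high at 1 h, and the same 1 h arrays enter the difference, so these counts describe them and are no test of decay. The 0 h arrays enter both the choice and the call of 6 h against 0 h, so the 72 above 0 h are no test of persistence. Of all tested genes 10.5% were called above 0 h at 6 h. Among the 43 genes not called, the 95% interval lay within 1 log2 unit either way for 24, and for the other 19 a 2-fold change in at least 1 direction was within the interval. These class sizes leaned on single arrays. Leaving out CTX WT 1 h replicate 1 gave 34 early genes of which 5 fell and 4 rose, and leaving out CTX WT 0 h replicate 1 or replicate 2 gave 45 or 33 early genes. Without CTX WT 6 h replicate 1, 6 early genes were called lower, and without CTX WT 1 h replicate 2, 11 were called higher.

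**Figure D1:**
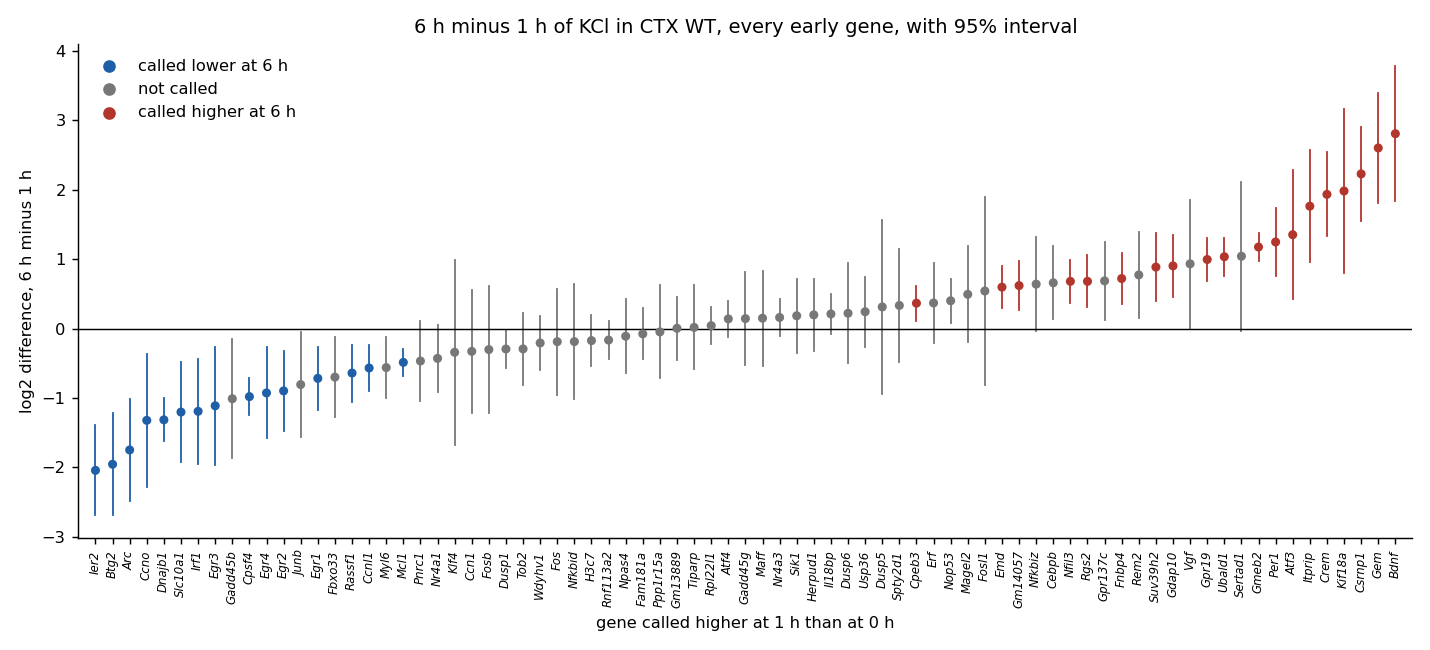
Log2 difference between 6 h and 1 h of KCl in CTX WT cultures (vertical axis) for each of the 77 genes called higher at 1 h than at 0 h (horizontal axis, in order of the difference). Points are differences of the means of 2 arrays, bars are 95% intervals not adjusted for the number of genes, blue marks the 15 called lower, red the 19 called higher and grey the 43 not called; the values run from -2.04 for Ier2 to 2.81 for Bdnf.

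Among the early genes that stayed up were the factors with the steepest first rise. Fosb, a subunit of the AP-1 transcription factor, read 5.44 and 5.56 at 0 h, 13.06 and 12.95 at 1 h, then 12.19 and 13.21 at 6 h. Its 6 h arrays overlapped its 1 h arrays, and the difference was -0.30 ± 0.43 (SE, n = 2 arrays per group, limma adjusted p = 0.67) with a 95% interval of -1.22 to 0.62. Fos, the founding member of the same family, read 8.49 and 8.31 at 0 h, 14.19 and 13.99 at 1 h, then 13.78 and 14.02 at 6 h. The level at 6 h overlapped that at 1 h, with a difference of -0.19 ± 0.36 (SE, adjusted p = 0.76) and an interval of -0.96 to 0.58, and on both 1 h arrays Fos stood at or above the 99.7th percentile of all genes. Npas4, a calcium-induced basic helix-loop-helix factor and the gene deleted in the KO mice, read 5.80 and 5.94 at 0 h, 12.03 and 11.77 at 1 h, then 11.73 and 11.84 at 6 h. Its 2 later times overlapped, and the difference was -0.11 ± 0.25 (SE, adjusted p = 0.8) with an interval of -0.65 to 0.42. Nr4a1, an orphan nuclear receptor, read 6.33 and 6.31 at 0 h, 12.46 and 12.15 at 1 h, then 11.83 and 11.92 at 6 h. Both 6 h arrays lay below both 1 h arrays, yet the difference of -0.43 ± 0.23 (SE, adjusted p = 0.17) did not pass, with an interval of -0.91 to 0.05. After 6 h the level of Fosb was still 7.20 log2 units above 0 h, that of Npas4 5.92, that of Nr4a1 5.55 and that of Fos 5.50.

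Other early factors and effectors were also not called between 1 h and 6 h. Junb, an AP-1 subunit, lay at 7.25 and 6.45 at 0 h, 11.49 and 11.30 at 1 h, then 10.09 and 11.08 at 6 h. Its 6 h arrays were both lower, and the interval of its difference of -0.81 ran from -1.56 to -0.06 (adjusted p = 0.1). Maff, a small Maf protein, differed by 0.15 ± 0.32 (SE, adjusted p = 0.79) and Klf4, a Krüppel-like factor, by -0.34 ± 0.62 (SE, adjusted p = 0.75), and in both genes the 6 h arrays stood on either side of the 1 h mean. Klf4 read 9.66 and 12.02 on its 2 arrays at 6 h, against 11.50 and 10.87 at 1 h. Gadd45b, which takes part in DNA demethylation, moved from 11.93 and 11.87 at 1 h to 10.15 and 11.62 at 6 h, a difference of -1.01 ± 0.40 (SE, adjusted p = 0.071) with an interval of -1.87 to -0.16. Dusp1, a phosphatase that inactivates MAP kinases, held 13.72 and 13.72 at 1 h and 13.46 and 13.38 at 6 h, and its difference of -0.29 ± 0.13 (SE, adjusted p = 0.11) had the narrower interval of -0.57 to -0.02. Vgf, the precursor of several secreted peptides, stood at 12.63 and 12.02 at 1 h and 13.26 and 13.25 at 6 h, with both late arrays higher and an adjusted p of 0.12. The named early genes of smallest change were Tiparp, Rpl22l1, Ppp1r15a, Fam181a, Npas4, Atf4, Gadd45g, Maff and Nr4a3, with differences between -0.11 and 0.16. Junb was called with CTX WT 6 h replicate 2 left out (-1.30). Gadd45b was called with the probe set of highest variance (-1.32), the mean of probe sets (-1.22) and CTX WT 6 h replicate 2 left out (-1.75). Dusp1 was called with quantile normalization (-0.37).

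The 250 bases before the start of Fos, Nr4a1 and Npas4 are shown because these are 3 of the early genes not called between 1 h and 6 h and because the cyclic AMP response element, CRE, is the textbook binding site of the calcium-regulated factor CREB. Sequences are from RefSeq (GRCm38.p6), 5′ to 3′ along the gene, and the window ends at the base before the first listed start. Capitals mark any of 6 motifs searched on both strands: CRE TGACGTCA, its core TGACG, AP-1 TGANTCA, the serum response element (SRE, CArG box), the MEF2 element and the Egr site GCGNGGGCG. The core lies inside the full CRE. Fos lies at chr12:85473640-85473889 on the plus strand, Nr4a1 at chr15:101266596-101266845 on the plus strand and Npas4 at chr19:4989972-4990221 on the minus strand.
Fos: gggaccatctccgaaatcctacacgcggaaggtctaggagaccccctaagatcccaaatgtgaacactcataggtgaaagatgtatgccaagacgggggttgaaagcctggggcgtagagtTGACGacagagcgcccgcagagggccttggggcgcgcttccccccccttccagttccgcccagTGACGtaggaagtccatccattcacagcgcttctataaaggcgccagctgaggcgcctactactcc
Nr4a1: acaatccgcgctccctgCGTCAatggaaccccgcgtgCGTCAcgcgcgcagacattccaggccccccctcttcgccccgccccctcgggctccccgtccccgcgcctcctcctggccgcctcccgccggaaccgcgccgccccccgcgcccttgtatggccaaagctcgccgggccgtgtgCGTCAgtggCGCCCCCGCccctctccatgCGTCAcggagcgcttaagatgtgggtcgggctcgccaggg
Npas4: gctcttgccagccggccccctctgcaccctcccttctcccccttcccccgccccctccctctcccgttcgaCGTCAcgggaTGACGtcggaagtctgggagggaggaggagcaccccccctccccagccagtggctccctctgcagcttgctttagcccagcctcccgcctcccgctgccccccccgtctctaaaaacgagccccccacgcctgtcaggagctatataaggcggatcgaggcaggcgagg
In these windows Fos held 2 CRE cores, Nr4a1 held 4 CRE cores and 1 Egr site, and Npas4 held 2 CRE cores. The CRE core was present in 27.7% of the windows of the same length that could be matched (2772 of 10016), so its presence is a description of these letters and no mark of a working site.

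The early genes that fell were led by Ier2, Btg2 and Arc. Ier2, a short-lived nuclear protein of the first response, read 6.89 and 6.70 at 0 h, 11.53 and 11.32 at 1 h, then 9.16 and 9.59 at 6 h. The 6 h arrays lay below the 1 h arrays and above the 0 h arrays, with a difference of -2.04 ± 0.30 (SE, n = 2 arrays per group, limma adjusted p = 0.00017). Btg2, an antiproliferative protein that links to the mRNA deadenylation machinery, read 7.83 and 7.37 at 0 h, 12.26 and 12.07 at 1 h, then 9.91 and 10.51 at 6 h. It took the same middle position at 6 h, with a difference of -1.96 ± 0.34 (SE, adjusted p = 0.00064). Arc, which drives removal of AMPA receptors from synapses, read 5.28 and 5.53 at 0 h, 11.16 and 10.62 at 1 h, then 8.51 and 9.77 at 6 h. Its difference was -1.75 ± 0.34 (SE, adjusted p = 0.0014), and at 6 h it was still 3.74 above 0 h. The promoter window of Btg2, at chr1:134079156-134079405 on the minus strand, is shown as the one of these 3 with a matched sequence.
Btg2: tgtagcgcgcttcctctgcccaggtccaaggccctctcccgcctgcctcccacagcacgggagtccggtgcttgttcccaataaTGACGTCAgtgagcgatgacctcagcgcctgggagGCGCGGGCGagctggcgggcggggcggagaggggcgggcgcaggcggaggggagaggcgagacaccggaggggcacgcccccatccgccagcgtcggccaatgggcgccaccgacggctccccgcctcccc
It held 1 full CRE and 1 Egr site. A full CRE was present in 2.82% of all matched windows.

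All 4 members of the Egr family of zinc finger factors fell, each by less than it had risen. Egr1 read 10.57 and 10.49 at 0 h, 14.25 and 13.92 at 1 h, then 13.11 and 13.63 at 6 h. The 6 h arrays were just under the 1 h arrays, with a difference of -0.72 ± 0.21 (SE, adjusted p = 0.019). Egr2 read 7.21 and 7.54 at 0 h, 13.16 and 12.91 at 1 h, then 11.86 and 12.41 at 6 h, and its difference was -0.90 ± 0.27 (SE, adjusted p = 0.021). Egr3 differed by -1.11 ± 0.40 (SE, adjusted p = 0.048) and Egr4 by -0.93 ± 0.31 (SE, adjusted p = 0.033), both with all 6 h arrays below all 1 h arrays. At 6 h Egr2 stayed 4.76 above 0 h, Egr1 2.84, Egr4 1.55 and Egr3 1.13. The other early genes that fell and stayed above 0 h were Ccno (-1.32), the tumour suppressor gene Rassf1 (-0.64) and Ccnl1 (-0.57), where Ccnl1 encodes a cyclin that works in transcription and splicing. Egr1, Egr4, Ccno and Ccnl1 lost the call without CTX WT 1 h replicate 1 or 6 h replicate 1, Egr2 and Rassf1 without CTX WT 1 h replicate 1 or 2 or 6 h replicate 1, and Egr3 without any 1 of the 4 arrays (limma adjusted p up to 0.42). Rassf1 differed by -1.18 with the probe set of highest variance, and Egr3 by -0.51 (not called) with the mean of probe sets. Egr3 was not called under quantile normalization, cyclic loess and no filter on dim genes, Egr4 under quantile normalization and Ccno under cyclic loess.

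A further 5 early genes fell and were no longer called above 0 h at 6 h. Dnajb1, a heat shock co-chaperone of the Hsp40 class, read 11.80 and 11.75 at 0 h, 13.22 and 13.08 at 1 h, then 11.57 and 12.09 at 6 h. Its 6 h arrays straddled the 0 h level, with a difference from 1 h of -1.32 ± 0.14 (SE, adjusted p = 1.6e-05) and from 0 h of 0.06. Mcl1, a short-lived anti-apoptotic protein, fell by 0.49 on the log2 scale (adjusted p = 0.00099) to 12.89 and 12.87 at 6 h, against 12.86 and 12.88 at 0 h. Irf1, a factor of the interferon response, differed by -1.19 between 6 h and 1 h, the bile acid transporter gene Slc10a1 by -1.20 and Cpsf4, which takes part in mRNA 3′ end formation, by -0.98. Cpsf4 ended below its starting level, at -0.39 relative to 0 h (adjusted p = 0.026). Jun, which was not called at 1 h, also fell, from 13.05 and 13.03 at 1 h to 11.38 and 12.54 at 6 h, a difference of -1.08 ± 0.29 (SE, adjusted p = 0.012). Irf1 lost the call without CTX WT 1 h replicate 1 or 6 h replicate 1, Slc10a1 without CTX WT 1 h replicate 2 or 6 h replicate 1, and Jun without CTX WT 1 h replicate 1 or 2 or 6 h replicate 1 (limma adjusted p up to 0.25). Dnajb1 differed by -0.33 (not called), Mcl1 by 0.08 (not called) and Jun by -1.92 with the probe set of highest variance, and Dnajb1 by -0.82 with the mean of probe sets.

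The 19 early genes that rose further included a growth factor, a calcium channel inhibitor and several transcription factors. Bdnf, the neurotrophin that supports synapse growth, read 7.74 and 6.79 at 0 h, 10.61 and 9.07 at 1 h, then 12.98 and 12.32 at 6 h. Each time lay above the one before without overlap, and the gain from 1 h to 6 h was 2.81 ± 0.45 (SE, n = 2 arrays per group, limma adjusted p = 0.00033). Gem, a small GTPase that inhibits calcium channels, read 4.49 and 5.13 at 0 h, 7.24 and 6.15 at 1 h, then 9.03 and 9.56 at 6 h, with a difference of 2.60 ± 0.37 (SE, adjusted p = 0.00012). Csrnp1, a nuclear protein of the early response, read 7.72 and 7.13 at 0 h, 9.41 and 8.52 at 1 h, then 10.97 and 11.42 at 6 h, with a difference of 2.23 ± 0.31 (SE, adjusted p = 0.00012). Crem, a CREB-related gene that also encodes inhibitory isoforms which 1 probe set does not separate, read 8.62 and 8.26 at 0 h, 11.16 and 10.11 at 1 h, then 12.79 and 12.36 at 6 h, with a difference of 1.93 ± 0.28 (SE, adjusted p = 0.00016). In all 4 genes the 6 h arrays stood clear above the 1 h arrays. Bdnf differed by 1.87 with the probe set of highest variance, and Csrnp1 by 1.07 and Crem by 0.95 with the mean of probe sets.

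Smaller further rises were seen in Atf3, a stress-induced repressor (1.35 ± 0.43 SE, adjusted p = 0.029), in Per1, a clock gene with CRE-driven transcription (1.25 ± 0.23 SE, adjusted p = 0.001), in Nfil3, a basic leucine zipper repressor (0.68 ± 0.15 SE, adjusted p = 0.0029), and in Rgs2, which shortens G protein signals (0.68 ± 0.18 SE, adjusted p = 0.009). Kif18a, a mitotic kinesin, gained 1.98 and Itprip, which binds the IP3 receptor, gained 1.76. The histone methyltransferase gene Suv39h2 gained 0.89 and the glucocorticoid element binding factor Gmeb2 gained 1.17. The remaining 7 of the 19 were Ubald1, Gpr19, Gdap10, Fnbp4, Emd, Cpeb3 and 1 predicted gene, with gains from 0.37 to 1.03. The early genes named here that stand on none of the lists, from Ccno and Rassf1 to these, were named after their values were seen. Atf3 lost the call without CTX WT 1 h replicate 1 or 2 or 6 h replicate 2, Nfil3 and Itprip without CTX WT 1 h replicate 2, Rgs2 without CTX WT 1 h replicate 2 or 6 h replicate 1, and Kif18a and Suv39h2 without CTX WT 1 h replicate 2 or 6 h replicate 2 (limma adjusted p up to 0.22). Kif18a differed by 1.10, Itprip by 0.80 and Gmeb2 by 0.65 with the mean of probe sets.

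**Figure D2:**
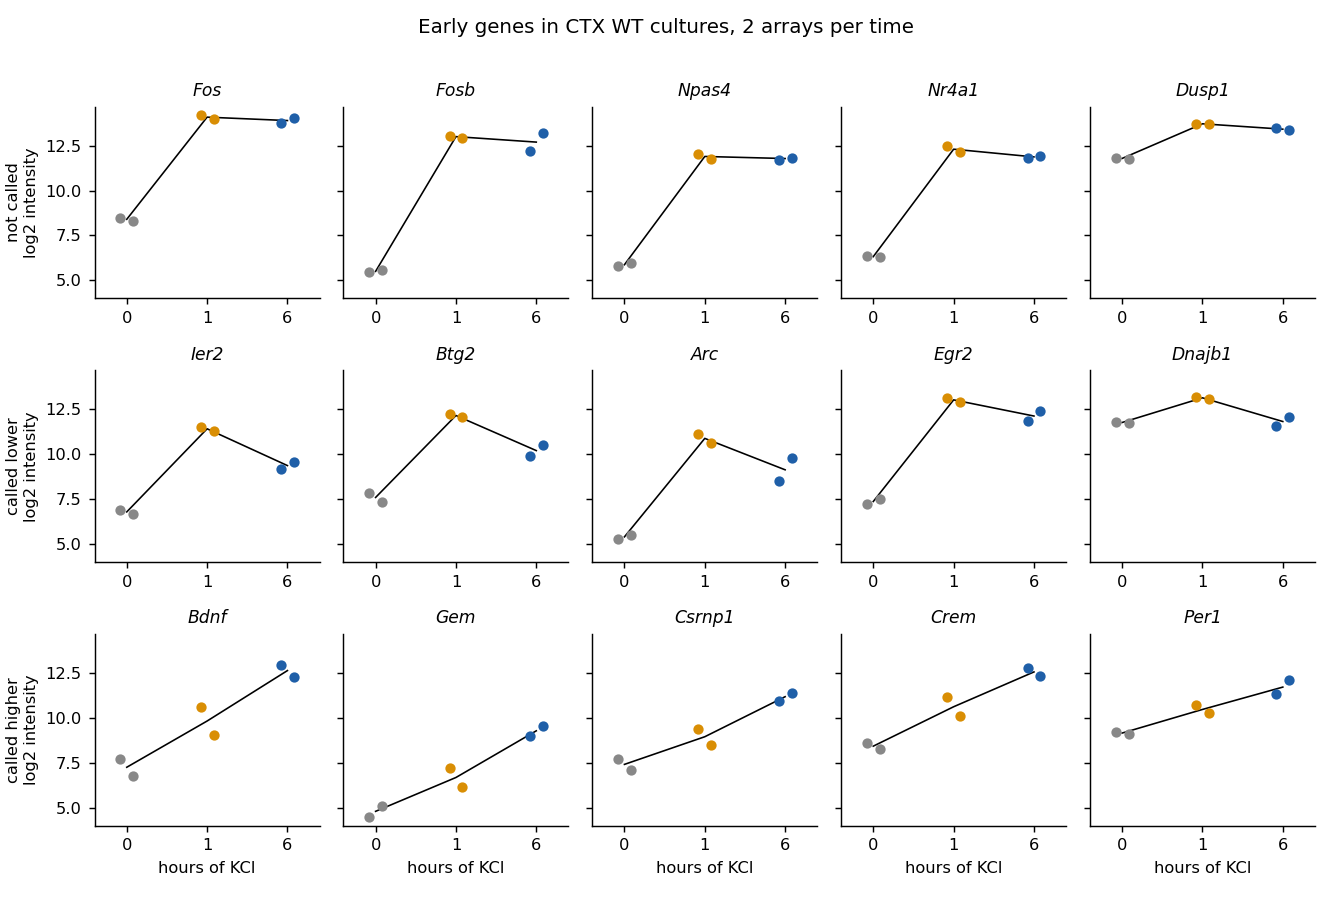
Log2 intensity (vertical axis) at 0, 1 and 6 h of KCl (horizontal axis, evenly spaced) in CTX WT cultures for 15 early genes; each point is 1 array, the line joins the means of 2 arrays, and the rows hold genes not called, called lower and called higher between 1 h and 6 h. Fosb stands at 12.19 and 13.21 at 6 h, Ier2 drops to 9.16 and 9.59, and Bdnf climbs to 12.98 and 12.32.

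Early genes were also chosen by the mean 1 h response of the CTX KO, MGE WT and MGE KO cultures. The CTX WT arrays do not enter that difference, but its SE and the gene filter came from all 24 arrays. The choice was therefore not fully independent of CTX WT, and the counts below describe these genes. This gave 81 genes called at least 2-fold higher at 1 h than at 0 h (0.654% of those tested), of which 48 were also early in CTX WT. In CTX WT, 10 of the 81 fell between 1 h and 6 h, 19 rose and 52 were not called, with a median difference of 0.22 against -0.09 for all tested genes. After 6 h, 70 of the 81 were called above 0 h in CTX WT, where 10.5% of all tested genes were. The numbers that rose and fell were 23.5% and 12.3% of the 81, against 8.26% and 21.6% of all tested genes. The number that fell was 3 without CTX WT 6 h replicate 1 and 5 without CTX WT 1 h replicate 1.

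The CTX KO arrays, which do not enter the differences that chose the early genes of CTX WT, were read for the same 3 early classes. Each gene has the same SE in both genotypes, from the fit to all 24 arrays. Genes called in CTX WT are thereby favoured for a call in CTX KO, so these counts are no independent test. Of the 15 early genes that fell in CTX WT, 14 were called lower in CTX KO between 1 h and 6 h and 0 higher, where 21.3% of all tested genes were lower. Of the 19 that rose further, 15 were called higher in CTX KO and 0 lower, where 8.94% of all tested genes were higher. Of the 43 not called in CTX WT, 35 were not called in CTX KO either, 4 fell and 4 rose. By the same test 69 of the 77 were also called higher at 1 h than at 0 h in CTX KO, where 0.671% of all tested genes were.

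Genes that encode immediate early factors were not a uniform group. Of 29 tested, 18 were higher at 1 h than at 0 h and 22 were higher at 6 h than at 0 h. Of all tested genes 0.622% and 10.5% were. Between 1 h and 6 h, 6 fell (Jun, Egr1, Egr2, Egr3, Egr4 and Ier2), 3 rose (Atf3, Csrnp1 and Nfil3) and 20 were not called, with a list median of -0.11. The shares, 10.3% higher and 20.7% lower, were near the 8.26% and 21.6% of all tested genes. Those not called, besides the ones described above, were Fosl1, Fosl2, Jund, Nr4a2, Nr4a3, Klf6, Klf10, Ier5, Mafk, Bhlhe40, Cebpb, Srf and Myc, and the 20 differences ran from -0.81 to 0.66. Nr4a3, a relative of Nr4a1, overlapped between the times, at 13.88 and 13.58 at 1 h, then 13.97 and 13.82 at 6 h, with an interval of -0.11 to 0.43 around 0.16. Cebpb, a leucine zipper factor, read 8.74 and 8.86 at 1 h and 8.92 and 9.99 at 6 h, and its rise of 0.66 just missed the threshold (adjusted p = 0.057). Nr4a3 was called with the probe set of highest variance (1.75) and the mean of probe sets (0.79). Cebpb was called with quantile normalization (0.73), cyclic loess (0.73) and CTX WT 6 h replicate 1 left out (1.20).

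Of the rapid effectors, a list of genes for enzymes, signalling and structural proteins known from fast responses, 11 of 24 were called higher at 1 h than at 0 h. Of all tested genes 0.622% were. Between 1 h and 6 h the list gave 4 rises, 3 falls and 17 genes not called among 24 tested, with a median of 0.23 (16.7% higher and 12.5% lower, against 8.26% and 21.6% of all tested genes). The rises were Gem, Rgs2, Noct and Gadd45a, and the falls were Arc, Btg2 and Mcl1. Gadd45a, a growth arrest gene, went the opposite way from Gadd45b in point value: it read 9.11 and 8.74 at 0 h, 7.88 and 7.73 at 1 h, then 9.32 and 10.35 at 6 h, a rise of 2.03 ± 0.51 (SE, adjusted p = 0.008) after a low at 1 h. Noct, a deadenylase-related protein under clock control, rose by 0.39 ± 0.12 (SE, adjusted p = 0.021). Ccn1, a matrix-bound signalling protein, held 12.57 and 12.66 at 1 h and 12.23 and 12.34 at 6 h. Ptgs2, the inducible prostaglandin synthase, read 4.27 and 5.85 at 0 h, 8.61 and 7.52 at 1 h, then 9.48 and 9.78 at 6 h, and its difference of 1.57 ± 0.68 (SE, adjusted p = 0.098) was not called although both 6 h arrays were higher. Members not called also include Homer1, Plk2, Plk3, Btg1, Gadd45g, Ier3, Rem2, Zfp36, Trib1, Sgk1, Tiparp, Rheb, Errfi1 and Ppp1r15a, and the 17 differences ran from -1.01 to 1.57. Gadd45a lost the call without CTX WT 1 h replicate 2 or 6 h replicate 2 and Noct without CTX WT 1 h replicate 1 or 2 or 6 h replicate 1 (limma adjusted p up to 0.16). Ptgs2 was called with the mean of probe sets (2.44) and an added constant of 16 (1.51).

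Negative feedback genes, whose products shut down kinase and second messenger signals, were measured for 27 members. Of these, 10 rose and 2 fell (37% higher and 7.41% lower, against 8.26% and 21.6% of all tested genes) and 15 were not called, with a median of 0.54 against -0.09 for all genes. Within the dual-specificity phosphatases the times differed by member. Dusp14 read 7.41 and 7.35 at 0 h, 8.01 and 7.98 at 1 h, then 10.39 and 10.95 at 6 h, a rise of 2.68 ± 0.43 (SE, adjusted p = 0.00032), and Dusp4 read 8.98 and 8.18 at 0 h, 10.44 and 8.87 at 1 h, then 12.26 and 12.21 at 6 h, a rise of 2.58 ± 0.42 (SE, adjusted p = 0.00035). Dusp10 rose by 2.13 ± 0.33 (SE, adjusted p = 0.00024) from a level at 1 h of 7.80 and 7.49 that lay under its 0 h level of 8.31 and 8.36. Dusp1, Dusp5 and Dusp6 had risen by 1 h and were not called after it, and Dusp2 fell by 0.69 (adjusted p = 0.02). Dusp2 lost the call without CTX WT 1 h replicate 2 or 6 h replicate 2 (limma adjusted p up to 0.14).

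Among the Sprouty inhibitors of receptor tyrosine kinase signalling, Spry4 read 7.58 and 7.13 at 0 h, 8.65 and 7.85 at 1 h, then 10.72 and 10.46 at 6 h, a rise of 2.34 ± 0.32 (SE, adjusted p = 0.0001), and Spry2 rose by 0.99 ± 0.32 (SE, adjusted p = 0.028). The related Spred1 read 11.27 and 11.33 at 0 h, 10.59 and 10.81 at 1 h, then 11.69 and 11.17 at 6 h, a rise of 0.73 ± 0.20 (SE, adjusted p = 0.013) that brought it to 0.13 from 0 h. Nab1, a corepressor of the Egr factors, rose by 0.71 ± 0.16 (SE, adjusted p = 0.0038), and Nfkbia, the inhibitor of NF-kappa-B, by 0.65 ± 0.17 (SE, adjusted p = 0.0094). Socs2, a suppressor of cytokine signalling, went the other way, from 12.89 and 12.83 at 1 h to 11.24 and 11.33 at 6 h, a fall of 1.58 (adjusted p = 3.8e-05). The members not called were Dusp1, Dusp5, Dusp6, Spry1, Spred2, Spred3, Nab2, Sik1, Pde4a, Pde4b, Pde4d, Rcan1, Zfp36l1, Tob1 and Socs3. Spry2 lost the call without CTX WT 1 h replicate 2 or 6 h replicate 1, Spred1 without CTX WT 1 h replicate 1 or 6 h replicate 1, Nab1 without CTX WT 1 h replicate 2, and Nfkbia without CTX WT 1 h replicate 1 (limma adjusted p up to 0.22). Spred1 differed by 1.23, Nab1 by 1.21 and Nfkbia by 0.98 with the probe set of highest variance, and Socs2 by -1.02 with the mean of probe sets.

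Late genes, those called higher at 6 h than at 1 h and not called at 1 h against 0 h, numbered 994, and 880 of them were also called above 0 h. Their number was 547 without CTX WT 1 h replicate 2. The 6 h arrays enter both the choice of late genes and the call above 0 h, so the 880 are no test. Of all tested genes 10.5% were called above 0 h at 6 h. The largest rise was that of Serpinb2, an inhibitor of plasminogen activators also known as a neuronal activity-regulated gene. It read 3.89 and 3.49 at 0 h, 3.53 and 3.43 at 1 h, then 10.30 and 9.60 at 6 h. Only the 6 h arrays stood above the array median, and the difference of 6.47 ± 0.29 (SE, n = 2 arrays per group, limma adjusted p = 1.6e-08) is a fold of 88.6. The deposited values carry no detection call, so the size of a fold against so dim a level is uncertain. Nptx2, a secreted pentraxin that clusters AMPA receptors, read 6.29 and 5.18 at 0 h, 7.18 and 5.22 at 1 h, then 10.92 and 10.46 at 6 h, a rise of 4.49 ± 0.60 (SE, adjusted p = 7.4e-05). Its arrays at 0 h and 1 h did not separate, and both 6 h arrays were far above them.

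Pcsk1, the convertase that cleaves prohormones in secretory granules, read 7.07 and 5.91 at 0 h, 9.39 and 7.64 at 1 h, then 12.50 and 12.62 at 6 h. It had a first step at 1 h that was not called (2.03) and a larger one after it, of 4.04 ± 0.46 (SE, adjusted p = 2.1e-05). Inhba, the activin A subunit, read 8.37 and 9.33 at 0 h, 8.07 and 8.47 at 1 h, then 11.17 and 10.94 at 6 h, a rise of 2.78 ± 0.39 (SE, adjusted p = 0.00011) with no step at 1 h. Acan, the core proteoglycan of perineuronal nets, read 7.67 and 7.36 at 0 h, 7.94 and 7.15 at 1 h, then 12.38 and 9.77 at 6 h, and its 6 h arrays lay well apart (3.53 ± 0.59 SE, adjusted p = 0.00041). Crh, corticotropin-releasing hormone, read 4.41 and 5.49 at 0 h, 6.74 and 6.33 at 1 h, then 9.77 and 9.64 at 6 h, a rise of 3.17 ± 0.84 (SE, adjusted p = 0.01). The promoter windows of Pcsk1, at chr13:75089607-75089856 on the plus strand, and Serpinb2, at chr1:107511173-107511422 on the plus strand, are shown as those of the largest late rises on the late response list with a matched sequence.
Pcsk1: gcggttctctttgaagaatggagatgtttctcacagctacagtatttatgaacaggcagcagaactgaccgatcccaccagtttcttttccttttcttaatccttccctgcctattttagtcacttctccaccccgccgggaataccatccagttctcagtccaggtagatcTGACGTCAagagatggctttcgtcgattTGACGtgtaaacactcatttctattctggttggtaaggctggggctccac
Serpinb2: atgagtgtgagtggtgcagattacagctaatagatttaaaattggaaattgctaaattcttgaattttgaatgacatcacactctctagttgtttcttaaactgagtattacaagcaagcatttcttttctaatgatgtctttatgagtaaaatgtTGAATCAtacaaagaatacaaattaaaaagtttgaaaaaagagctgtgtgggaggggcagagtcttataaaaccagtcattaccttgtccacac
The window of Pcsk1 held 1 full CRE and 1 separate CRE core, and that of Serpinb2 held 1 AP-1 motif and no CRE. An AP-1 motif was present in 3.85% of all matched windows. Crh lost the call without CTX WT 1 h replicate 2 (limma adjusted p up to 0.073). Inhba differed by 1.5 with the mean of probe sets.

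**Figure D3:**
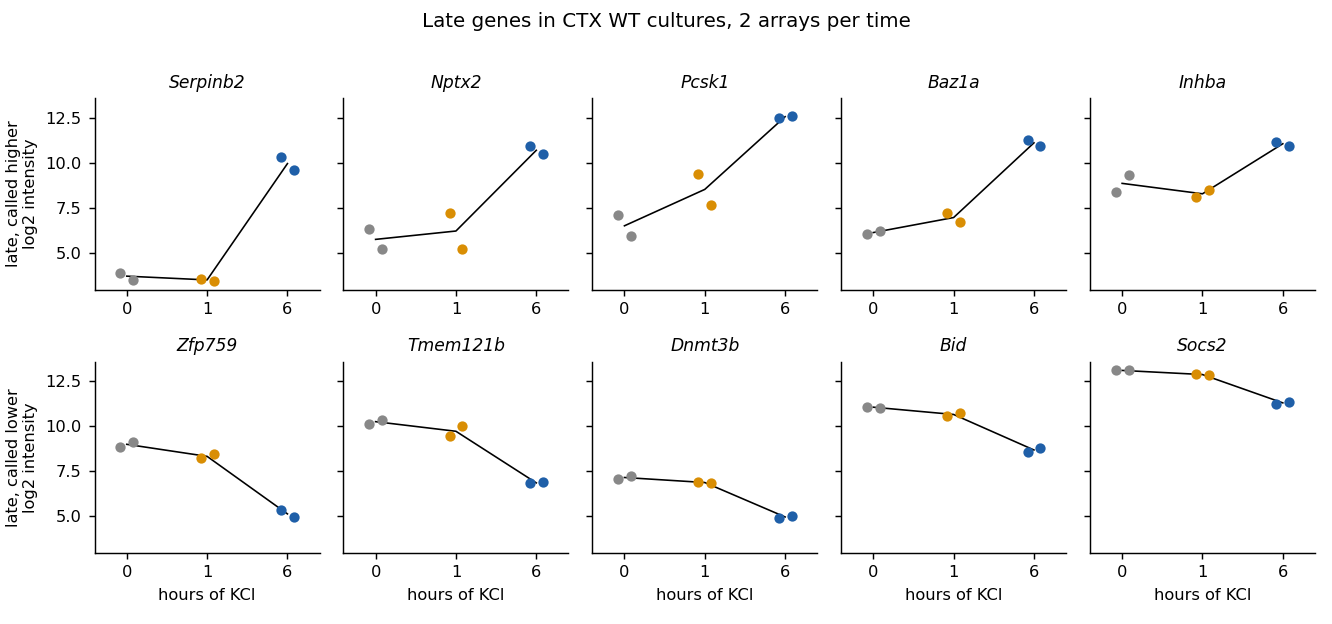
Log2 intensity (vertical axis) at 0, 1 and 6 h of KCl (horizontal axis, evenly spaced) in CTX WT cultures for 5 late genes called higher and 5 called lower between 1 h and 6 h; points are single arrays and lines join the means of 2 arrays. The 0 h and 1 h levels of Serpinb2 lie between 3.43 and 3.89, and its 6 h arrays stand at 10.30 and 9.60.

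Genes on the late response list rose in 14 of 25 tested cases and fell in 1 (56% higher and 4% lower, against 8.26% and 21.6% of all tested genes), with a median of 1.30. Besides those above and Bdnf, the rises were Scg2, Plat, Rasgrp1, Gpr3, Cdkn1a, Sv2c and Kcnj4. Gpr3, a receptor that raises cyclic AMP on its own, read 8.89 and 8.23 at 1 h and 11.27 and 10.48 at 6 h, a rise of 2.31 ± 0.40 (SE, adjusted p = 0.00061). Sv2c, a synaptic vesicle protein, went from 4.98 and 4.69 to 7.13 and 6.95, a rise of 2.20 ± 0.26 (SE, adjusted p = 2.5e-05), and Rasgrp1, a Ras activator, rose by 2.03 ± 0.33 (SE, adjusted p = 0.00031). Kcnj4, an inward rectifier channel, rose by 0.77 ± 0.16 (SE, adjusted p = 0.0027). The gene that fell was Cpne8, at -1.11 ± 0.38 (SE, adjusted p = 0.039), and another of its probe sets was called the opposite way at 0.57. Nptx1, Vgf, Nrn1, Timp1, Syt4, Rgs4, Stac, Pdlim1, Baiap2 and Slc2a3 were not called. For Baiap2 the main probe set differed by -0.54 and another was called higher at 2.31, so its direction depends on the probe set. Cpne8 lost the call without CTX WT 1 h replicate 1 or 2 or 6 h replicate 1 (limma adjusted p up to 0.39). Rasgrp1 differed by 1.19 with the mean of probe sets.

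The other late rises in the 15 largest fell outside the lists of activity genes. They comprise Baz1a, a subunit of a chromatin remodelling complex, Prox1, a homeobox factor, and Zhx2, a zinc finger homeobox repressor. Baz1a read 6.02 and 6.21 at 0 h, 7.20 and 6.70 at 1 h, then 11.29 and 10.92 at 6 h, a rise of 4.16 ± 0.23 (SE, adjusted p = 9.7e-08). Zhx2 read 8.50 and 8.59 at 0 h, 8.58 and 8.87 at 1 h, then 11.50 and 12.34 at 6 h, a rise of 3.20 ± 0.34 (SE, adjusted p = 1.2e-05), and the differences in the first hour, 0.84 and 0.18, were not called. Prox1 read 5.17 and 5.42 at 0 h, 8.54 and 6.36 at 1 h, then 9.95 and 11.41 at 6 h. Its 1 h arrays already lay above the 0 h arrays, and it rose by a further 3.23 ± 0.69 (SE, adjusted p = 0.0027). The cell division genes among them were Cep55, of the abscission machinery, at 3.09 ± 0.85 (SE, adjusted p = 0.013) and Ncapg2, a condensin subunit, at 2.79 ± 0.32 (SE, adjusted p = 2.3e-05). The rest were Gfra1, the GDNF co-receptor (3.08), Ankrd33b (3.02) and Ism1, a secreted protein (2.91). All 15 lay between 6.87-fold and 88.6-fold higher at 6 h. Prox1 lost the call without CTX WT 1 h replicate 2, Cep55 without CTX WT 1 h replicate 2 or 6 h replicate 1, and Gfra1 without CTX WT 6 h replicate 1 (limma adjusted p up to 0.15). Cep55 differed by 1.58 and Gfra1 by 1.95 with the mean of probe sets.

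Secreted peptides and the machinery that packs them were measured next. Of 15 neuropeptide genes tested, 7 rose and 0 fell (46.7% higher and 0% lower, against 8.26% and 21.6% of all tested genes), with a median of 0.82. Besides Crh these were Pnoc, Penk, Cartpt, Adcyap1, Sst and Npy. Penk, the enkephalin precursor, read 6.24 and 7.33 at 0 h, 6.85 and 7.37 at 1 h, then 8.85 and 8.47 at 6 h, a rise of 1.55 ± 0.37 (SE, adjusted p = 0.0058). Adcyap1, which encodes PACAP, rose by 1.36 ± 0.43 (SE, adjusted p = 0.026) and Cartpt by 1.45 ± 0.31 (SE, adjusted p = 0.0029). Pnoc, the nociceptin precursor, read 8.77 and 7.85 at 1 h and 11.92 and 9.01 at 6 h, so its 2 late arrays were far apart although both were higher. Somatostatin, Sst, rose by 1.12 ± 0.29 (SE, adjusted p = 0.0096) and Npy by 0.69 ± 0.22 (SE, adjusted p = 0.029). Both mark interneurons, and the summed intensity of the 17 interneuron markers was 20364 to 27362 at 6 h against 14365 to 21230 at 1 h. That sum includes Sst and Npy themselves. Of 16 interneuron markers tested the other 14 were not called, Gad1, Gad2 and Slc32a1 among them, and the list median was 0.09. Whether a different share of interneurons plays a part in these peptide rises was not tested. Penk lost the call without CTX WT 1 h replicate 1, Adcyap1 and Sst without CTX WT 1 h replicate 2 or 6 h replicate 1, and Npy without CTX WT 1 h replicate 1 or 6 h replicate 1 or 2 (limma adjusted p up to 0.28).

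Of 17 secretory granule genes 4 rose and 0 fell (23.5% higher and 0% lower, against 8.26% and 21.6% of all tested genes), with a median of 0.22. Pam, the enzyme that amidates peptides, read 8.37 and 7.67 at 0 h, 8.58 and 8.41 at 1 h, then 10.85 and 10.46 at 6 h, a rise of 2.16 ± 0.23 (SE, adjusted p = 1.1e-05). Scg2, a granin, rose by 0.97 ± 0.18 (SE, adjusted p = 0.001) and Scg3 by 0.32 ± 0.10 (SE, adjusted p = 0.031). Of 17 growth factor and cytokine genes 4 rose and 0 fell (23.5% higher and 0% lower, against 8.26% and 21.6% of all tested genes): beside Bdnf and Inhba these were Tgfb2 (0.96 ± 0.34 SE, adjusted p = 0.047) and Fgf13 (0.47 ± 0.16 SE, adjusted p = 0.035). Scg3 lost the call without CTX WT 1 h replicate 1 or 6 h replicate 2, Tgfb2 without CTX WT 1 h replicate 1 or 6 h replicate 1 or 2, and Fgf13 without CTX WT 1 h replicate 1 or 2 or 6 h replicate 2 (limma adjusted p up to 0.34). Scg3 differed by 0.32 (not called), Tgfb2 by 1.09 (not called) and Fgf13 by 0.39 (not called) with the probe set of highest variance, and Fgf13 by 0.43 (not called) with the mean of probe sets. Scg3 was not called under quantile normalization and Tgfb2 under no filter on dim genes.

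Few receptor and channel genes were called. Of 25 glutamate receptor and auxiliary subunit genes (4% higher and 8% lower, against 8.26% and 21.6% of all tested genes), Cacng3 rose (0.72 ± 0.21 SE, adjusted p = 0.018) and Gria4 (-0.47 ± 0.12 SE, adjusted p = 0.0092) and Cacng2 (-0.48 ± 0.15 SE, adjusted p = 0.027) fell. Among 12 GABA receptor and scaffold genes only Gphn, the gephyrin scaffold, was called (0.45 ± 0.13 SE, adjusted p = 0.017). That is 8.33% higher and 0% lower, against 8.26% and 21.6% of all tested genes. Of 39 potassium channel genes 5 rose and 4 fell (12.8% higher and 10.3% lower, against 8.26% and 21.6% of all tested genes). Kcna1, a Kv1 subunit, read 9.93 and 9.48 at 1 h and 12.15 and 10.33 at 6 h (1.53 ± 0.45 SE, adjusted p = 0.018), Kcnf1 rose by 1.31 ± 0.33 (SE, adjusted p = 0.0085) and Kcnn2, an SK channel, by 1.24 ± 0.40 (SE, adjusted p = 0.03). Kcnt2 (-1.48) and Kcnv1 (-1.35) fell. Among 26 synaptic vesicle genes Sv2c rose and Syn3 fell (3.85% higher and 3.85% lower, against 8.26% and 21.6% of all tested genes). Of 21 sodium and calcium channel genes 3 fell and 0 rose (0% higher and 14.3% lower, against 8.26% and 21.6% of all tested genes): Scn2b, a sodium channel beta subunit, at -1.42 ± 0.15 (SE, adjusted p = 1.2e-05), Cacna1d, an L-type calcium channel, at -1.10 ± 0.19 (SE, adjusted p = 0.00046), and Cacnb1 at -0.57 ± 0.19 (SE, adjusted p = 0.035). Cacng3 lost the call without CTX WT 1 h replicate 1 or 6 h replicate 2, Gria4 without CTX WT 1 h replicate 1 or 6 h replicate 1, Cacng2 without any 1 of the 4 arrays, Gphn and Kcnn2 without CTX WT 1 h replicate 1 or 2 or 6 h replicate 1, Kcna1 and Kcnt2 without CTX WT 1 h replicate 2 or 6 h replicate 1, Kcnf1 without CTX WT 6 h replicate 1, and Kcnv1 and Cacnb1 without CTX WT 1 h replicate 2 or 6 h replicate 2 (limma adjusted p up to 0.29). Gria4 differed by 0.00 (not called), Kcnv1 by 0.33 (not called) and Cacnb1 by -0.52 (not called) with the probe set of highest variance, and Gria4 by 0.04 (not called), Cacng2 by -0.24 (not called) and Kcnv1 by -0.41 (not called) with the mean of probe sets. Cacnb1 was not called under quantile normalization and cyclic loess.

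Of 19 clock genes 6 rose and 1 fell (31.6% higher and 5.26% lower, against 8.26% and 21.6% of all tested genes). Per2 read 8.63 and 8.58 at 0 h, 9.06 and 8.47 at 1 h, then 11.50 and 10.95 at 6 h, a rise of 2.46 ± 0.31 (SE, adjusted p = 4.4e-05) that began after the first hour, whereas Per1 had already moved by then. Cry2 rose by 0.93 ± 0.20 (SE, adjusted p = 0.0032) and Hlf by 1.34 ± 0.27 (SE, adjusted p = 0.0018), and Dbp, a relative of Hlf, fell at -1.22 ± 0.31 (SE, adjusted p = 0.0085). Of 21 heat shock genes 6 rose and 1, Dnajb1, fell (28.6% higher and 4.76% lower, against 8.26% and 21.6% of all tested genes). Hspa1b, the inducible Hsp70, rose by 1.46 ± 0.32 (SE, adjusted p = 0.0032), Hspb8, a small heat shock protein, by 2.08 ± 0.47 (SE, adjusted p = 0.0036), and Hsf2, a heat shock factor, by 1.59 ± 0.37 (SE, adjusted p = 0.0051). Of 40 chromatin modifiers 8 rose and 6 fell (20% higher and 15% lower, against 8.26% and 21.6% of all tested genes). Eed (1.22 ± 0.19 SE, adjusted p = 0.00022) and Ezh2 (1.25 ± 0.26 SE, adjusted p = 0.0021), both of Polycomb complex 2, rose, as did the demethylase gene Kdm6a (1.07) and Tet3 (1.24). Dnmt3b, a de novo DNA methyltransferase, read 7.06 and 7.21 at 0 h, then 6.90 and 6.81 at 1 h and fell by 6 h at -1.91 ± 0.13 (SE, adjusted p = 6.5e-07). The 1 h level was near the medians of the CTX WT arrays, 6.87 to 6.89 in log2. The fall thus went below the array median, and its size is uncertain. Dbp lost the call without CTX WT 1 h replicate 2 or 6 h replicate 1, Hspb8 without CTX WT 1 h replicate 2, Hsf2 without CTX WT 6 h replicate 1, and Kdm6a without CTX WT 1 h replicate 1 or 2 or 6 h replicate 2 (limma adjusted p up to 0.11). Per2 differed by 1.63, Hspb8 by 1.10 and Eed by 0.68 with the mean of probe sets.

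Of 20 apoptosis and p53 pathway genes 3 rose and 5 fell (15% higher and 25% lower, against 8.26% and 21.6% of all tested genes). Bid, a pro-apoptotic Bcl2 relative, read 11.08 and 11.01 at 0 h, 10.54 and 10.74 at 1 h, then 8.53 and 8.80 at 6 h, a difference of -1.97 ± 0.12 (SE, adjusted p = 3.4e-07). Apaf1 (-1.38 ± 0.35 SE, adjusted p = 0.0078) and Casp9 (-1.28 ± 0.27 SE, adjusted p = 0.0023), which form the apoptosome, and Bbc3, which encodes PUMA, at -1.14 ± 0.23 (SE, adjusted p = 0.002), fell too, while Cdkn1a, the cell cycle inhibitor p21, rose by 0.84 ± 0.19 (SE, adjusted p = 0.0041). The remaining fall was that of the anti-apoptotic gene Bcl2l1, and the remaining rises were those of its anti-apoptotic relative Bcl2 and of Gadd45a. Of 19 cholesterol synthesis genes 4 rose and 1 fell (21.1% higher and 5.26% lower, against 8.26% and 21.6% of all tested genes). The rises include Sc5d (1.10 ± 0.13 SE, adjusted p = 2.3e-05) and Pmvk (0.79 ± 0.12 SE, adjusted p = 0.00027). Of 23 genes of the ATF4 stress response 3 rose and 0 fell (13% higher and 0% lower, against 8.26% and 21.6% of all tested genes): Sesn2 (1.68 ± 0.33 SE, adjusted p = 0.0015), Mthfd2 (0.91 ± 0.31 SE, adjusted p = 0.036) and Atf5 (0.59 ± 0.21 SE, adjusted p = 0.049). Apaf1 lost the call without CTX WT 1 h replicate 2, Mthfd2 without CTX WT 1 h replicate 1 or 6 h replicate 1 or 2, and Atf5 without CTX WT 1 h replicate 1 or 6 h replicate 2 (limma adjusted p up to 0.43). Cdkn1a differed by 1.29, Sc5d by -0.10 (not called) and Atf5 by 0.59 (not called) with the probe set of highest variance, and Casp9 by -0.44 and Sc5d by 0.36 (not called) with the mean of probe sets. Atf5 was not called under no filter on dim genes.

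Zinc finger protein genes with a Zfp symbol, many of which encode C2H2 DNA-binding factors, fell in 114 of 303 tested cases (37.6%, against 21.6% of all genes). They rose in 22 (7.26%, near the 8.26% of all genes), and the list median was -0.46. Zfp759 read 8.85 and 9.11 at 0 h, 8.20 and 8.42 at 1 h, then 5.31 and 4.91 at 6 h, the largest called fall, at -3.20 ± 0.33 (SE, n = 2 arrays per group, limma adjusted p = 1e-05). Zfp493 read 8.62 and 8.78 at 0 h, 8.04 and 8.56 at 1 h, then 5.29 and 5.24 at 6 h, at -3.03 ± 0.21 (SE, adjusted p = 6.5e-07). In both the 6 h arrays were far below the others, and the 1 h arrays were slightly below the 0 h arrays. Zfp354b (-2.79), Zfp94 (-2.68), Zfp213 (-2.58) and the related Zkscan7 (-2.79) were also among the 15 largest falls. Zfp493 differed by -1.78 and Zfp213 by -1.45 with the mean of probe sets.

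The others of the 15 were Tmem121b, Ttc8, Senp8, Zbtb8b, Tmem69, Cep57l1, Plekhh1, Ccdc14 and Zc3h6. Tmem121b read 10.13 and 10.35 at 0 h, 9.43 and 9.98 at 1 h, then 6.81 and 6.86 at 6 h, at -2.88 ± 0.22 (SE, adjusted p = 1.5e-06). Ttc8, a subunit of the BBSome of cilia, read 9.18 and 9.07 at 0 h, 9.18 and 9.33 at 1 h, then 6.45 and 6.38 at 6 h, at -2.84 ± 0.24 (SE, adjusted p = 2.7e-06), and Senp8, a protease that removes NEDD8, differed by -2.81 ± 0.34 (SE, adjusted p = 3.5e-05). All 15 lay between 5.62-fold and 9.18-fold lower at 6 h, with no overlap between the arrays. Of the 30 genes that had fallen by 1 h (0.242% of those tested), 8 fell again by 6 h, 9 rose and 13 were not called. Of all tested genes 21.6% fell and 8.26% rose between 1 h and 6 h. The 30 were picked for being low at 1 h, and the same 1 h arrays enter the later difference, so these counts are no test.

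Few genes of housekeeping function were called. Of all tested genes 8.26% rose and 21.6% fell. Among 72 respiratory chain genes 2 rose (2.78%) and 1 fell (1.39%). Among 37 cytosolic ribosome genes 1 rose (2.7%) and 0 fell, and among 37 proteasome genes 1 rose (2.7%) and 2 fell (5.41%). The list medians were 0.03 for the respiratory chain and 0.03 for the ribosome. Excitatory neuron markers gave 1 rise, Fezf2 (1.14 ± 0.22 SE, adjusted p = 0.0012), and 2 falls, Emx1 (-0.69 ± 0.19 SE, adjusted p = 0.013) and Cux2 (-0.53 ± 0.17 SE, adjusted p = 0.03), among 16. That is 6.25% higher and 12.5% lower, against 8.26% and 21.6% of all tested genes. Emx1 lost the call without CTX WT 1 h replicate 2 or 6 h replicate 2 and Cux2 without CTX WT 1 h replicate 1 or 2 or 6 h replicate 1 (limma adjusted p up to 0.19). Cux2 differed by 0.41 (not called) with the probe set of highest variance, and Emx1 by -0.37 (not called) and Cux2 by 0.02 (not called) with the mean of probe sets.

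Markers of other cells were measured beside these. By limma 29.8% of all tested genes were called, and 39.4% had an unadjusted p under 0.05. Of these lists 0 of 10 astrocyte, 0 of 6 oligodendrocyte, 0 of 10 microglia and 0 of 11 vascular genes tested were called, with 0, 0, 1 and 1 of them at an unadjusted p under 0.05. The largest differences were 0.75 ± 0.59 (SE) for the astrocyte gene Gja1, -0.28 for the myelin gene Mbp, 1.11 ± 0.42 (SE) for the microglia gene Cd68 and 0.94 ± 1.31 (SE) for the stromal gene Col1a1. The summed intensity of 14 vascular markers was 3322 to 5845 at 1 h and 4061 to 12806 at 6 h, so the 6 h arrays differed most from each other there, and the endothelial genes Pecam1, Cldn5, Cdh5, Flt1 and Kdr were below the array median in both arrays of each time. The sum of 14 microglia markers was 1363 to 2199 at 1 h and 2360 to 2425 at 6 h. Of 12 progenitor genes 2 rose and 0 fell (16.7% higher and 0% lower, against 8.26% and 21.6% of all tested genes). The rises were Sox2 (1.74 ± 0.45 SE, adjusted p = 0.0093) and Pcna (0.52 ± 0.18 SE, adjusted p = 0.041). The sum of 13 progenitor markers was 18339 to 21867 at 1 h and 25848 to 28905 at 6 h, without overlap. The part of these cells in the late rises was not tested. The log2 difference between the 3′ and 5′ control probes of actin, a sign of RNA quality, was 0.54 and 0.59 at 1 h and 0.53 and 0.45 at 6 h, and that of Gapdh was 0.60 and 0.69, then 0.54 and 0.58. Both were lower at 6 h without overlap, and their part in the results was not tested. Sox2 lost the call without CTX WT 1 h replicate 2 or 6 h replicate 1 and Pcna without CTX WT 1 h replicate 1 or 2 or 6 h replicate 2 (limma adjusted p up to 0.44). Pcna was not called under quantile normalization and no filter on dim genes. Cd68 was called with quantile normalization (1.17), cyclic loess (1.21) and CTX WT 1 h replicate 1 left out (1.73).

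**Figure D4:**
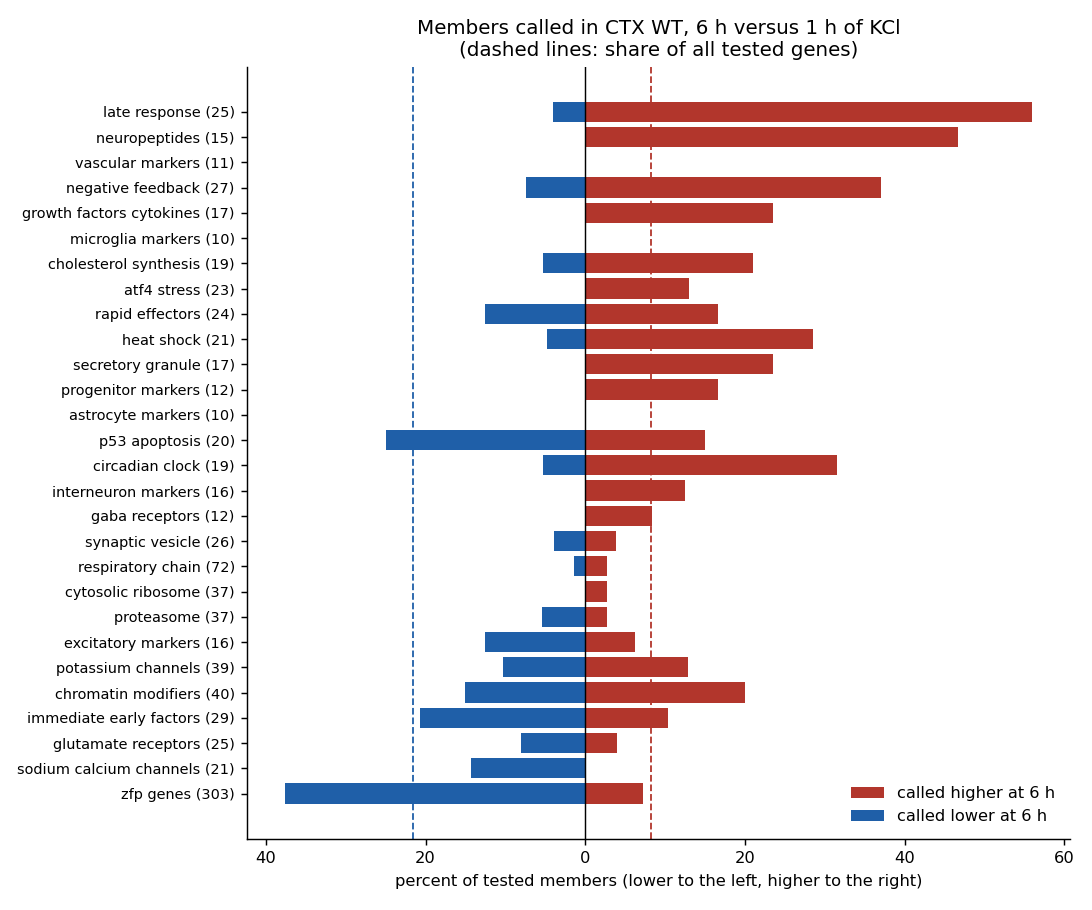
Share of tested members called higher (red, to the right) or lower (blue, to the left) between 1 h and 6 h of KCl in CTX WT cultures, in percent on the horizontal axis, for each list with at least 10 tested members (number in brackets), ordered by list median. Dashed lines mark the shares over all tested genes, 8.26% higher and 21.6% lower; the late response list reaches 56.0% higher and the Zfp list 37.6% lower.

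The same interval was compared with that in WT cultures from the MGE, an embryonic source of inhibitory neurons. In MGE WT 506 genes rose (4.09%) and 1083 fell (8.75%) between 1 h and 6 h. The difference between the cultures was tested itself, as an interaction: for 231 genes the change was higher in CTX WT than in MGE WT (1.87%) and for 508 it was lower (4.10%). Leaving out 1 of the 8 arrays gave 99 to 430 and 142 to 1064, the lowest of each without CTX WT 1 h replicate 2 and the highest without CTX WT 6 h replicate 1.

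Several early factors came down further in MGE WT than in CTX WT. Of the 29 immediate early factors, 7 had a change that was higher in CTX WT than in MGE WT and 0 lower. Of all tested genes 1.87% were higher and 4.10% lower. Egr2 in MGE WT read 6.85 and 7.49 at 0 h, 12.10 and 12.10 at 1 h, then 8.23 and 7.85 at 6 h, so its 6 h arrays were near the starting level there. The interaction for Egr2 was 3.16 ± 0.38 (SE, n = 2 arrays per group, limma adjusted p = 0.00061). Fosb in MGE WT read 5.18 and 4.74 at 0 h, 11.24 and 11.71 at 1 h, then 9.29 and 7.82 at 6 h, and the interaction was 2.62 ± 0.61 (SE, adjusted p = 0.021). Npas4 in MGE WT read 5.70 and 5.84 at 0 h, 12.04 and 11.20 at 1 h, then 9.32 and 8.59 at 6 h, with an interaction of 2.56 ± 0.35 (SE, adjusted p = 0.0015). Nr4a1 (1.76 ± 0.32 SE, adjusted p = 0.0058), Egr1 (1.80 ± 0.30 SE, adjusted p = 0.0038) and Maff (2.08 ± 0.45 SE, adjusted p = 0.014) differed in the same direction. Csrnp1, which rose in CTX WT, read 7.72 and 7.86 at 1 h, then 7.84 and 7.74 at 6 h in MGE WT (2.23 ± 0.44 SE, adjusted p = 0.0095). Fos differed by -0.88 in MGE WT and its interaction of 0.70 ± 0.51 (SE, adjusted p = 0.51) was not called, with an interval of -0.39 to 1.78. Fosb lost the called interaction without CTX WT 1 h replicate 2, CTX WT 6 h replicate 2, MGE WT 1 h replicate 2 or MGE WT 6 h replicate 2, Maff without CTX WT 1 h replicate 2 or MGE WT 6 h replicate 2, and Csrnp1 without CTX WT 1 h replicate 2 (limma adjusted p up to 0.092).

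Several late rises were also larger in CTX WT than in MGE WT. Serpinb2 in MGE WT read 4.80 and 4.51 at 0 h, 4.58 and 4.59 at 1 h, then 5.36 and 4.66 at 6 h, and the interaction was 6.04 ± 0.41 (SE, adjusted p = 2.7e-06). Baz1a in MGE WT stood at 6.98 and 6.65 at 6 h (3.43 ± 0.32 SE, adjusted p = 7.9e-05). The phosphatase gene Dusp16, which rose by 2.61 in CTX WT, differed by -0.49 in MGE WT (3.10 ± 0.50 SE, adjusted p = 0.003), and Gem lay between 3.97 and 4.16 on the 4 arrays of MGE WT, near the bottom of the intensity range (2.76 ± 0.52 SE, adjusted p = 0.0071). Nptx2 rose in both (4.49 and 2.44), as did Per2 (2.46 and 2.29), and their interactions were not called (adjusted p = 0.19 and 0.9). Dusp16 differed by 1.52 with the mean of probe sets.

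In the other direction, some genes rose in MGE WT and were not called in CTX WT. Rspo3, an activator of Wnt signalling, read 5.56 and 5.10 at 1 h, then 9.03 and 9.02 at 6 h in MGE WT. In CTX WT it read 9.98 and 9.82 at 1 h, then 10.91 and 9.88 at 6 h (-3.20 ± 0.48 SE, adjusted p = 0.0023). Cacng5, an AMPA receptor auxiliary subunit, read 8.11 and 7.86 at 1 h, then 11.71 and 11.59 at 6 h in MGE WT. In CTX WT it read 7.18 and 7.19 at 1 h, then 8.08 and 7.28 at 6 h (-3.16 ± 0.38 SE, adjusted p = 0.00061). Il21, a cytokine gene, rose from 3.90 and 4.59 to 7.82 and 8.05 in MGE WT and stayed between 3.84 and 4.23 in CTX WT (-3.95 ± 0.27 SE, adjusted p = 2.7e-06). Sv2c rose in both, by more in MGE WT (3.56) than in CTX WT (2.20), with an interaction of -1.36 ± 0.36 (SE, adjusted p = 0.04). Socs2 fell in CTX WT and differed by 0.14 in MGE WT (-1.72 ± 0.27 SE, adjusted p = 0.003). Sv2c lost the called interaction without 6 of the 8 arrays in turn (limma adjusted p up to 0.15).

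**Figure D5:**
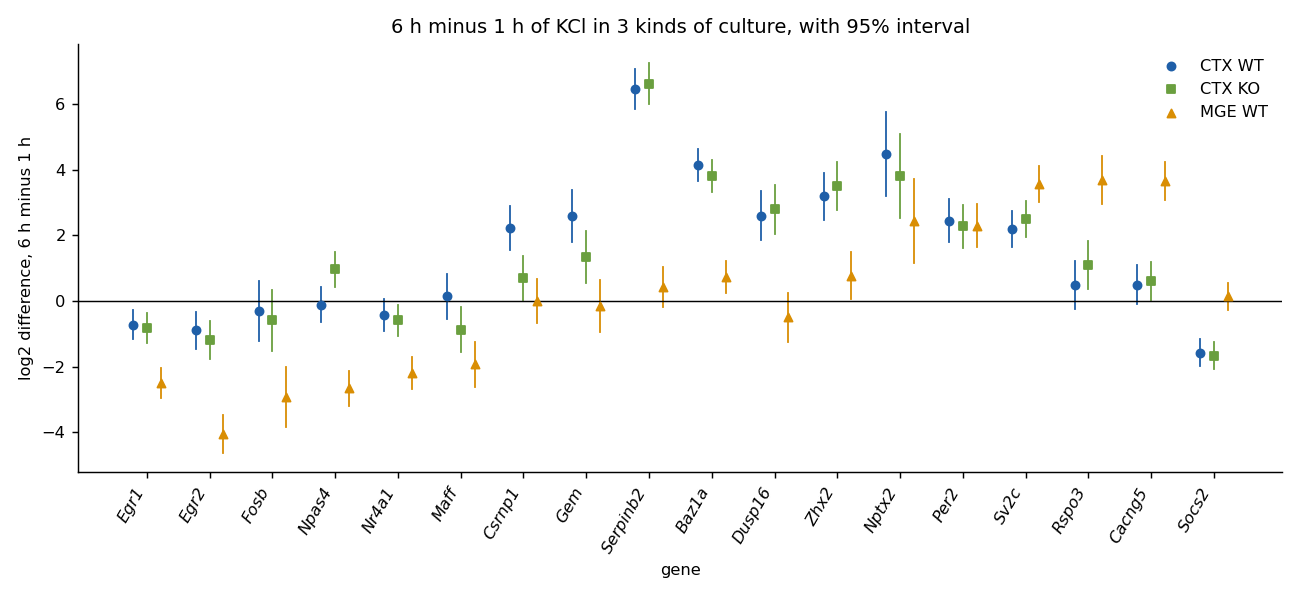
Log2 difference between 6 h and 1 h of KCl (vertical axis) for 18 genes (horizontal axis) in CTX WT (blue circles), CTX KO (green squares) and MGE WT (orange triangles) cultures, with 95% intervals from the fit to all arrays. For Egr2 the values are -0.90, -1.19 and -4.06, and for Serpinb2 6.47, 6.63 and 0.43.

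The CTX cultures of Npas4 KO mice were compared over the same interval. Npas4 itself read 5.82 and 5.78 at 0 h, 6.80 and 6.85 at 1 h, then 7.76 and 7.82 at 6 h in CTX KO, far under its WT levels at 1 h and 6 h but not flat, and whether its probe set lies in the deleted stretch is not given in the sources used here. In CTX KO 1106 genes rose (8.94%) and 2637 fell (21.3%) between 1 h and 6 h. Of the 1022 that rose in CTX WT 828 also rose in CTX KO, which is 81.0% of the WT and 74.9% of the KO list. Of the 2669 that fell 2271 also fell in CTX KO, which is 85.1% and 86.1%, and 0 genes were called in opposite directions. The calls of both genotypes use the same SE for each gene, so this overlap is no independent test. No gene had a called difference between the genotypes: limma gave 0 of 12378 interactions at an adjusted p under 0.05, with 134 (1.08%) at an unadjusted p under 0.05. With other probe sets 1 gene was called, Slc25a36, a mitochondrial carrier named after its value was seen, whose difference was 1.77 higher in WT with the probe set of highest variance and 1.20 with the mean of its probe sets.

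Single differences between the genotypes could be large and still uncertain. Csrnp1 rose by 2.23 in CTX WT and differed by 0.71 in CTX KO, a difference of 1.52 with an interval of 0.57 to 2.47 (adjusted p = 1). Gem differed by 2.60 and 1.35, a difference with an interval of 0.14 to 2.37. For Bdnf, at 2.81 and 2.28, the interval of the difference was -0.84 to 1.90, and for Nptx2, at 4.49 and 3.83, it was -1.15 to 2.47. These intervals do not show that the genotypes act alike.

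Late genes were also chosen by the mean difference in the other cultures. The SE behind that choice and the gene filter came from all 24 arrays, CTX WT among them. The counts below therefore describe these genes and are no independent check. Genes at least 2-fold higher at 6 h than at 1 h in the mean of CTX KO, MGE WT and MGE KO numbered 218 (1.76% of those tested), and 147 of them (67.4%) rose in CTX WT and 0 fell. Genes at least 2-fold lower there numbered 504 (4.07%), and 454 of them (90.1%) fell in CTX WT and 0 rose. Their median differences in CTX WT were 1.24 and -1.40, against -0.09 for all tested genes.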

How the data were processed

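RNA of 24 samples (12 groups of 2, 100 ng total RNA each) was hybridised to Affymetrix mouse 430 2.0 arrays. The deposited intensity values, 1 per probe set on a linear scale, were made by the authors with RMA, which corrects background, normalizes between arrays and summarizes probes, per the submitters' processing notes. Whether all arrays were normalized together is not given in the sources used here. They were used as log2. Each gene was read from its probe set of highest mean over all arrays, and 12378 of 18194 genes were tested, those that exceeded the median of the array on no fewer than 2 arrays. A mean per group was fitted to all 24 arrays with limma 3.58.1 (R 4.3.3, 12 residual degrees of freedom). P-values were adjusted by Benjamini-Hochberg over all tested genes, with a call at an adjusted p under 0.05. Recovery was tested on simulated data. Depth has no count here, so the number of arrays limits the precision.

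The members and lists were chosen with earlier results of these data known. Named were the 15 largest rises and falls without overlap, the members of 4 activity lists, up to 5 called members of other lists, the 10 largest interactions each way and the 10 early genes that changed least. Predicted genes were counted only.

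Gene spans and promoter windows came from RefSeq (GRCm38.p6). Promoters were matched for 10016 tested genes (80.9%) and for 60 of the 77 early genes (77.9%), too few to compare motif shares between gene groups.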

Additional observations from a re-analysis of the deposited data

Results flagged for a closer look

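The change between 1 h and 6 h differed between the cortical and MGE cultures of WT mice by a test of the difference itself (limma interaction, adjusted p under 0.05), higher in CTX WT for 231 genes and lower for 508. The values below are this difference in log2 units, 2 arrays per group.

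Among transcription factors it was 3.16 for Egr2, 2.62 for Fosb, 2.56 for Npas4, 2.08 for Maff, 1.80 for Egr1 and 1.76 for Nr4a1. The nuclear protein gene Csrnp1 differed by 2.23, the layer 5 factor gene Fezf2 by 1.57, the homeobox gene Zhx2 by 2.42 and the clock genes Hlf and Per1 by 2.21 and 1.22. Phosphatase genes were at 3.10 for Dusp16, 2.70 for Dusp10 and 0.78 for Dusp1. Serpinb2 was at 6.04, the remodelling gene Baz1a at 3.43, the GTPase gene Gem at 2.76, Spin4 at 2.61, Mss51 at 2.59, the chaperone gene Hspa1b at 2.47, the secreted protein gene Ism1 at 2.30 and the amidating enzyme gene Pam at 1.85.

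On the lower side the cytokine gene Il21 was at -3.95, the Wnt activator gene Rspo3 at -3.20, the receptor subunit gene Cacng5 at -3.16, Trim66 at -2.78, Ttc30a1 at -2.74, the vesicle protein gene Sv2b at -2.72 and its relative Sv2c at -1.36. Igsf9 and Nemp2 were both at -2.52, the angiopoietin gene Angpt1 at -2.49 and Tmem132c at -2.43. The zinc finger genes Zfp759, Zfp94 and Zfp493 differed by -2.34, -1.79 and -1.50. The cytokine suppressor gene Socs2 was at -1.72, Tmem121b at -1.58, the channel genes Kcnj4 and Scn2b at -1.30 each, the corepressor gene Nab1 at -1.11 and the co-chaperone gene Dnajb1 at -0.90.

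Several of these calls were lost in other settings. The difference for Dnajb1 was -0.08 with the probe set of highest variance and -0.49 with the mean of probe sets, and that for Nab1 was -0.90 and -0.55, none of them called. With the mean of probe sets the calls for Angpt1 (-1.73) and Zfp493 (-0.69) were lost, and with the probe set of highest variance that for Hspa1b (2.31). Leaving out single arrays of CTX WT or MGE WT ended the call for Per1 and Sv2c (6 of the 8 arrays each), Dusp1 and Dnajb1 (5 each), Fosb and Angpt1 (4 each), and Spin4 and Zfp94 (3 each). Without CTX WT 1 h replicate 2, and again without MGE WT 6 h replicate 2, the calls for Maff, Fezf2, Ttc30a1, Zfp759, Zfp493 and Tmem121b were lost. The first of these arrays also decided the call for Csrnp1 (1.78 without it) and the second that for Zhx2 (2.09 without it). Array weights ended the calls for Gem, Per1, Dusp1, Angpt1, Sv2c, Fosb, Spin4 and Zfp94, and limma's trend that for Sv2c.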

How the results depend on the processing

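The counts moved in fits to fewer arrays. The 4 arrays compared gave 241 higher and 627 lower. Among the genes that lost the call in that fit were Arc, Bdnf, Crem, Per1, Dusp4, Acan, Casp9, Bbc3, Ezh2, Cacna1d and Hlf. The 6 CTX WT arrays gave 15 early genes (3 lower, 10 not called and above 0 h, 2 higher), and the 12 CTX arrays 48 (9, 28 and 11). With the probe set of highest variance there were 139 early genes (23, 67 and 48), 35 rises and 16 falls among early genes chosen in other cultures, 287 late rises chosen there and 1 genotype difference. With the mean of all probe sets 29 early genes rose further, 290 late falls chosen elsewhere fell and 1 genotype difference was called. Array weights, chosen after seeing the data, gave 627 higher, 211 early genes (102 not called and above 0 h, 58 higher), 548 late genes, 11 rises and 3 falls among early genes chosen elsewhere, and 142 and 325 differences from MGE WT.

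Leaving out 1 array gave 563 to 1023 genes higher, 1544 to 2518 lower, 33 to 89 early genes (5 to 20 lower, 17 to 54 not called and above 0 h, 4 to 25 higher) and 547 to 989 late genes. Early genes chosen elsewhere gave 15 to 21 rises and 3 to 13 falls, late ones 100 to 166 rises and 361 to 495 falls, and the differences from MGE WT were 99 to 430 and 142 to 1064.

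The arrays of a group carry repeat numbers 1 and 2. Same-numbered CTX arrays deviated together in all 15 pairs of groups (correlations of 0.11 to 0.71, 0.27 for 1 h with 6 h), MGE arrays did not always (-0.23 to 0.86). With only 2 numbers a group and labels that name no shared culture, the arrays were not treated as paired. With the replicate block 1335 genes were higher and 3035 lower, 39 of 104 early genes rose further, and 428 and 775 genes differed from MGE WT.

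Signs turned with the probe set of highest variance for Baiap2 (2.31), Cux2 (0.41), Gria4 (0.00), Kcnv1 (0.33), Mbp (0.48), Mcl1 (0.08) and Sc5d (-0.10), and with the mean of probe sets for Baiap2 (0.35), Cux2 (0.02) and Gria4 (0.04). Of differences not called, some turned when 1 array was left out: they ran from -0.24 to 0.02 for Npas4, -0.81 to 0.20 for Fosb, -0.38 to 0.68 for Maff, -1.53 to 0.84 for Klf4, -0.02 to 1.01 for Rspo3 and -0.53 to 2.41 for Col1a1. Of 118 named genes called, 39 kept their call in all 17 settings. The causes were not tested. Quantile normalization, cyclic loess, other filters, an added constant of 16 and limma's trend moved no count by over 1.5 times.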

Other observations

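The time classes differed in the length of their genes. The median genomic span, from the RefSeq annotation (GRCm38.p6), was 24.7 kb over 12352 tested genes with a value. It was 7.72 kb for the 77 early genes, and within these 5.30 kb for the 15 that fell, 6.10 kb for the 43 not called and 15.7 kb for the 19 that rose further. For the 421 late genes that rose at least 2-fold it was 36.4 kb, and for 1089 of the 1093 genes outside the early set that fell at least 2-fold it was 21.5 kb. These medians are descriptions of the lists, with no test.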
